A study of Mus musculus with 7 samples.

Results

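Retinal neurons read the transmitters glutamate, GABA and glycine through receptors built from the products of a few gene families, and H3K18La (histone H3 lactylated at lysine 18) was examined here at the genes of those receptors in the postnatal mouse retina. Members were chosen by gene symbol alone. They were all H3K18La peaks that the deposited annotation assigned to a gene whose symbol starts with Gria, Grin1, Grin2, Grin3, Grik, Gabra, Gabrb, Gabrg, Gabrr, Gabbr or Glra, or is Glrb or Grm followed by a number, with 1 such Grm gene left out of the selection. The rule found 462 peaks of 42 genes among 108253 peaks of 25400 genes. Introns held 327 of the 462 peaks (70.8%, against 42% of all peaks), 62 were distal intergenic, 35 lay in promoters (7.58%, against 15.8% of all peaks), 23 in exons, 11 in 3′ UTRs and 4 in 5′ UTRs. A promoter was defined as the span from 1000 bases before to 500 bases after a transcription start site.

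H3K18La was profiled by CUT&Tag, in which an antibody bound to the mark leads an enzyme to cut or tag the DNA beside it, so that sequenced fragments gather where the mark lies. The samples were dissociated whole retinas of C57Bl/6J mice at postnatal day 4 (P4, n = 2 libraries), day 10 (P10, n = 2) and day 28 (P28, n = 3). The labels give this genotype for every library and name no treatment, so that age sets the groups apart. Batch 2 is given for P28 replicate 1 alone, and batch 1 for the rest. The study's methods speak of biological replicates, but neither they nor the labels say whether each library came from its own animals. The p-values therefore measure the spread between these libraries. Since the tissue held all retinal cell types, fewer cells of a type and less of the mark per cell cannot be told apart.

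AMPA, NMDA and kainate receptors are glutamate-gated channels assembled from subunits encoded by the Gria, Grin and Grik genes. The Grm genes encode metabotropic glutamate receptors, which signal through G proteins and often damp release at the presynaptic terminal. GABA-A receptors are chloride channels of alpha, beta and gamma subunits, and the rho subunits (Gabrr genes) form GABA-gated channels that are known above all from the axon terminals of retinal bipolar cells. Gabbr1 and Gabbr2 together make the G protein-coupled GABA-B receptor. Glycine receptors are chloride channels of alpha subunits (Glra genes) and the beta subunit (Glrb). In the retina, photoreceptors and bipolar cells release glutamate, while amacrine and horizontal cells provide most of the inhibition.

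Depth differed widely between libraries. The reads in peaks recovered from the deposited values ranged from 199970 (P10 replicate 1) to 8274373 (P28 replicate 2), and the receptor gene peaks took 0.430% and 0.446% of them at P4, 0.315% and 0.350% at P10, and 0.240%, 0.254% and 0.248% at P28. The number of reads at the median receptor gene peak was 2 and 2 at P4, 0 and 2 at P10, and 4, 21 and 8 at P28. Peaks held 16.3% and 17.6% of the effective library size at P4, 36.1% and 52.1% at P10, and 42.4%, 50.9% and 57.1% at P28, a difference between libraries that ran with age and cannot be told apart from it. A level given by 3 reads or fewer in every library of an age is called the floor below, and 278 of the 462 peaks were at it at P4, 324 at P10 and 62 at P28. Levels are RPKM (reads per kilobase of peak, scaled to library size), and differences are on the log2(RPKM + 1) scale from 1 limma fit over all 108253 peaks, with Benjamini-Hochberg adjustment over all of them and a threshold of 0.01. In simulated data few of the introduced changes passed this threshold, so a peak that missed it is not shown to be unchanged.

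Promoter sequences are shown for Grik5, whose promoter passed the test below, Gabrr1, whose positive estimate missed it, and the genes with the estimates nearest 0 (Gabrg1, Grm7), among the 29 receptor genes with an entry in the RefSeq promoter table (GRCm38.p6, 300 bases around the start). Capitals mark GGGCGG, the GC box bound by SP and KLF factors, on either strand (CCGCCC on the other), and TAATCC, the core bound by photoreceptor homeobox factors, searched as TAATCC and GGATTA. The windows are chr7:25072320-25072619 on the minus strand for Grik5, chr4:33132306-33132605 on the plus strand for Gabrr1, chr5:70842568-70842867 on the minus strand for Gabrg1 and chr6:110645262-110645561 on the plus strand for Grm7.
Grik5: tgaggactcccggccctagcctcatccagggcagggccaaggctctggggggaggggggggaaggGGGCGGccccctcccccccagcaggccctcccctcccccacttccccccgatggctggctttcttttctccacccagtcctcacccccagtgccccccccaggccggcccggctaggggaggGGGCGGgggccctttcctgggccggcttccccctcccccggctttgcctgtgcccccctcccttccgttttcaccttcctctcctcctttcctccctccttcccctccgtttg
Gabrr1: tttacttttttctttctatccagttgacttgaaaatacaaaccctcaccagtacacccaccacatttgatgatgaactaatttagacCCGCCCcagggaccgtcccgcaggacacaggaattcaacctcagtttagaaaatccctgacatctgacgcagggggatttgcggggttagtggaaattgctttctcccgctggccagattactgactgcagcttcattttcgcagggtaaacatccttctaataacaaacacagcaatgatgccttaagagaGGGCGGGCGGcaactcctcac
Gabrg1: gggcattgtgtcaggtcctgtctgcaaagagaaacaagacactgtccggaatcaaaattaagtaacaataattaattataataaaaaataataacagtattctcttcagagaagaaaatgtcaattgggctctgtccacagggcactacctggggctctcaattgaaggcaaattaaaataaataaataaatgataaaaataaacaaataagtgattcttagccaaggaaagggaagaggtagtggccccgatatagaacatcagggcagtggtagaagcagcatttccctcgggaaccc
Grm7: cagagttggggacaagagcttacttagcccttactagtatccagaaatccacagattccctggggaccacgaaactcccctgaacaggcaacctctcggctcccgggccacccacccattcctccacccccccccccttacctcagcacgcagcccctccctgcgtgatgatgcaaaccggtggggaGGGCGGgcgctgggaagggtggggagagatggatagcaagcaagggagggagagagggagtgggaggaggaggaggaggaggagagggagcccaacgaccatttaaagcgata

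The Grik5 window held 2 GC boxes and 10 CG dinucleotides in 72% G and C. The Gabrr1 window held 3 GC boxes, 2 of them overlapping, the Grm7 window 1, and the AT-rich Gabrg1 window (38.3% G and C) none. Neither TAATCC nor its complement was in any of the 4 windows. Over the 36 RefSeq promoter windows of the 29 genes, 20 (55.6%) held GGGCGG, against 35.7% of 32851 windows of all genes, and 2 (5.56%) held TAATCC, against 7.06%.

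The first question was whether H3K18La at receptor gene promoters changed with age. Of 35 promoter peaks of 30 genes, 1 (2.86%), over the start of Grik5, passed the test as higher at P28, and 0 passed as lower. Over all 17144 promoter peaks, 31.3% were higher and 0.834% lower by the same rule. The count of 1 was 0 without P4 replicate 2 and without each P28 library in turn, 2 (1 higher, 1 lower) without P10 replicate 1 and 4 (3 higher, 1 lower) without P10 replicate 2. In the same settings the share of all promoter peaks that were higher was 10.5%, between 12.9% and 17.4%, 50.6% and 50.8%. The share that were lower was 0.268%, between 0.344% and 0.426%, 1.76% and 1.75%. Leaving out a P10 library does not alter a change from P4 to P28, only its error, here and for the single promoters below. The direction of the count depended on the scaling: 0 were higher and 5 lower with libraries scaled to reads in peaks (8.27% and 5.41% of all promoters), 1 and 2 with median centring (21.3% and 2.71%), and 0 and 4 with quantile normalization (17.1% and 5.21%). The median change was 0.31 over the receptor promoters and 1.26 over all promoter peaks. At an unadjusted p under 0.05, 10 of the 35 changes passed (28.6%), against 63.1% of all promoter peaks.

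Errors were of like size in both sets, with a median standard error of 0.43 in each. The 95% interval of the change included 0 for 25 of the 35 peaks, lay above 0 for 8 and below 0 for 2, and for 17 it lay wholly below 1.26. An interval that excludes 0 is the same result as an unadjusted p under 0.05 from limma, given above with its share of all promoter peaks. No such share stands beside the split by direction or the count of 17, so these describe the 35 peaks only. Every P28 library was above every P4 library at 12 of the 35 (34.3%), against 73.8% of all promoter peaks. Every P28 library was below both P4 libraries at 6 (17.1%), against 7.53%. A scaling between libraries shifts these changes together. The median change of all peaks was 0.68 as deposited, -0.29 with libraries scaled to their total of reads in peaks, 0.16 with median centring and 0.09 with quantile normalization. Under those 3 scalings the sign changed at 15, 9 and 10 of the 35 receptor promoters, and the receptor promoter median lay 1.11, 0.96 and 1.25 below that of all promoters, against 0.96 as deposited. After thinning every library to the depth of the smallest, the sign changed at 14 of the 35 and 27 were positive. The receptor promoter median was then 0.53, which lay 0.73 below that of all promoters.

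**Figure D1:**
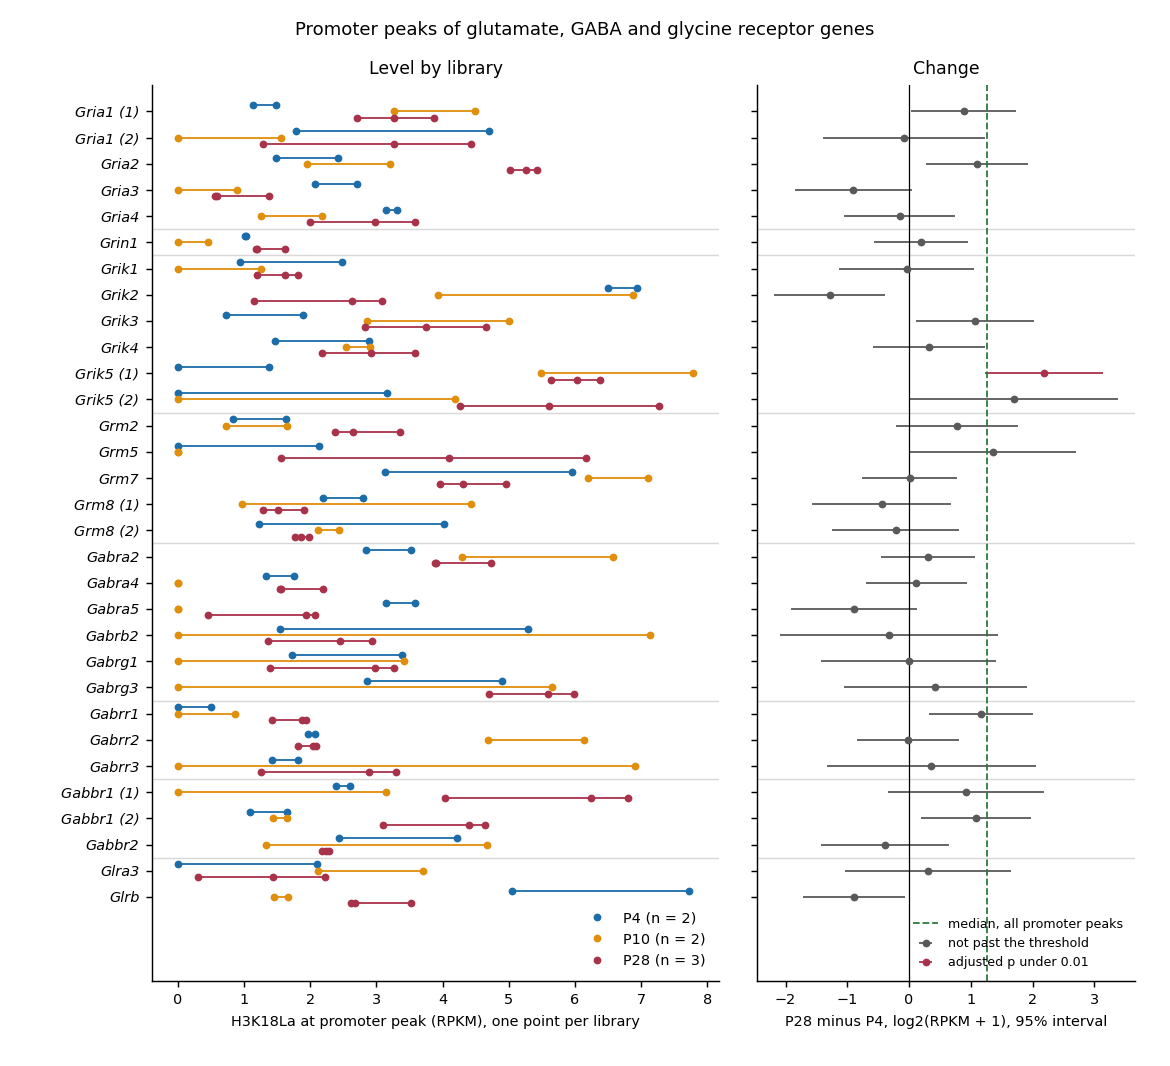
Left, H3K18La level (RPKM) at the receptor gene promoter peaks reported here, with a point for each library and a line from the lowest to the highest library of an age (P4 and P10, n = 2; P28, n = 3); genes are grouped by family, and genes with 2 promoter peaks carry a number. Right, the change from P4 to P28 on the log2(RPKM + 1) scale with its 95% interval. The Grik5 peak in red is past the threshold, and most of the other estimates lie left of the dashed median of all promoter peaks (1.26).

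**Figure D2:**
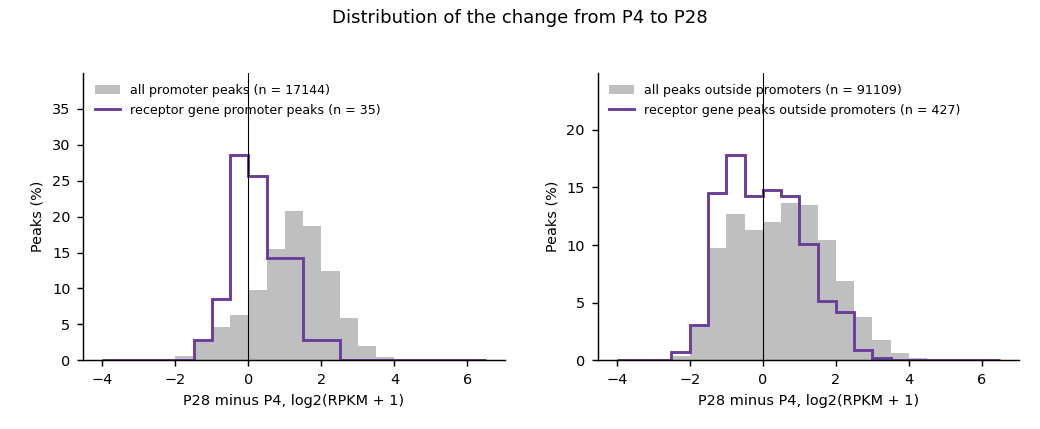
Share of peaks (%) by change from P4 to P28 in bins of 0.5 on the log2(RPKM + 1) scale, for promoter peaks (left) and peaks outside promoters (right). The outline of the 35 receptor gene promoters sits left of the grey area of all 17144 promoter peaks, with medians of 0.31 and 1.26.

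Among kainate receptor genes, the Grik5 promoter peak (chr7:25072207-25073522, gene ENSMUSG00000003378) held 1.38 and 0 RPKM at P4, 5.49 and 7.79 at P10, and 6.38, 6.02 and 5.64 at P28. Grik5 encodes a subunit that forms channels only with other kainate subunits. All libraries of P10 and P28 were above both of P4, where the peak had 4 reads in all. The change to P28 was 2.18 ± 0.43 (SE; limma adjusted p = 0.00329) and that to P10 2.29 ± 0.47 (adjusted p = 0.00529). The change to P28 passed in 7 of 16 alternative fits and was positive in all of them (1.46 to 3.99). Beside the left-out libraries named above, it missed the threshold with a pseudocount of 0.1, scaled to reads in peaks, with quantile normalization, after thinning every library to the depth of the smallest and with the replicate number as a block (adjusted p from 0.0114 to 0.244). The same peak also covered the start of Zfp574, a zinc finger gene, so the mark cannot be assigned to Grik5 alone. A second Grik5 promoter peak, which also reached the Zfp574 start, changed by 1.69 ± 0.76 and did not pass. The printed Grik5 window lies inside the called peak.

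The Grik2 estimate was negative. Its promoter peak had 6.93 and 6.50 RPKM at P4, 3.93 and 6.87 at P10, and 1.14, 3.08 and 2.63 at P28. It was the highest receptor promoter at P4, and no P28 library reached a P4 library. The change of -1.28 ± 0.40 (limma adjusted p = 0.0288) missed the threshold, and it passed without either P10 library. It also passed under the 3 scalings, which lower the median of all peaks and so are no check on a negative estimate. Estimates at Grik3 (1.07 ± 0.43), Grik4 (0.32 ± 0.41) and Grik1 (-0.04 ± 0.49) also missed it.

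For AMPA receptors, which carry most fast glutamate signals, the largest promoter change was at Gria2 (chr3:80800498-80803320), the subunit that sets calcium permeability. It had 2.41 and 1.48 RPKM at P4, 3.20 and 1.95 at P10, and 5.02, 5.42 and 5.26 at P28. The P28 libraries lay close together and above all others. The change of 1.10 ± 0.37 had a limma adjusted p of 0.0369, short of the threshold. It passed with voom (adjusted p = 0.00487) and with library weights (0.0074), and was -0.08 when scaled to reads in peaks. The weights were 10.8 for P28 replicate 2 and 0.327 for each P10 library. Without either P10 library the change stayed at 1.10. Gria3 had 2.07 and 2.71 RPKM at P4 and 0.596, 0.559 and 1.37 at P28 (change -0.90 ± 0.43). Gria4 changed by -0.15 ± 0.40, and the nearest Gria1 promoter peak by 0.89 ± 0.38. None of the 5 AMPA promoter peaks passed.

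NMDA receptor genes had a single promoter peak, at Grin1, the subunit every NMDA receptor needs. Its level was 1.04 and 1.02 RPKM at P4, 0 and 0.449 at P10, and 1.20, 1.61 and 1.18 at P28. These are among the lowest promoter levels of the set, and the change of 0.19 ± 0.34 did not pass. The peaks of Grin2a, Grin2b, Grin2c, Grin2d and Grin3a were all outside promoters.

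The smallest estimates included that of a metabotropic receptor. Grm7 (chr6:110644892-110646417) encodes a presynaptic receptor of low glutamate affinity, and its promoter had 5.96 and 3.13 RPKM at P4, 7.10 and 6.20 at P10, and 3.95, 4.95 and 4.30 at P28. The P28 values fell between the P4 values, and the change was 0.01 ± 0.34. This peak also covered the start of the predicted gene Gm20387. The largest change of the family was at Grm5, 1.36 ± 0.60, from 0 and 2.13 RPKM at P4, with 3 reads in all, through 0 in both P10 libraries to 1.56, 4.09 and 6.16 at P28. Its P4 and P28 libraries overlapped and it did not pass (limma adjusted p = 0.0929). Grm2 (0.78 ± 0.45) and the nearest Grm8 promoter peak (-0.45 ± 0.50) did not pass either.

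None of the 10 promoter peaks of GABA-A alpha, beta and gamma genes passed the test from P4 to P28, with a median change of 0.21. Gabra5 had the largest change, from 3.59 and 3.14 RPKM at P4 through 0 in both P10 libraries to 2.07, 1.94 and 0.454 at P28 (-0.89 ± 0.46). From P4 to P10 it passed as lower (-2.12 ± 0.50, limma adjusted p = 0.0096), on 5 reads at P4 and 0 at P10. Gabrg1, 1 of the 2 least changed promoters, had 1.72 and 3.38 RPKM at P4, 3.41 and 0 at P10, and 2.98, 1.39 and 3.26 at P28 (change -0.01 ± 0.64). Its peak, chr5:70843002-70843530, did not overlap the printed RefSeq window. The Gabra4 promoter peak (0.12 ± 0.36) also covered the start of Gabrb1.

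No other inhibitory receptor promoter passed the test. Gabrr1, encoding the rho1 subunit, had 0.495 and 0 RPKM at its promoter at P4, 0 and 0.859 at P10, and 1.43, 1.94 and 1.88 at P28. P28 was above the other ages in every library, but P4 rested on 1 read, and the change of 1.16 ± 0.38 missed the threshold (limma adjusted p = 0.0317). Gabrr2 was at 1.97 and 2.06 RPKM at P4, 4.69 and 6.14 at P10, and 2.04, 1.81 and 2.09 at P28. P4 and P28 overlapped and both P10 libraries were higher, with changes of -0.02 ± 0.37 to P28 and 1.08 ± 0.40 to P10 (limma adjusted p = 0.0632). For GABA-B, the Gabbr1 peak at chr17:37049710-37050807 had 1.66 and 1.09 RPKM at P4, 1.64 and 1.44 at P10, and 3.11, 4.65 and 4.40 at P28 (1.09 ± 0.40, limma adjusted p = 0.0516). The wider Gabbr1 promoter peak changed by 0.92 ± 0.57. For Gabbr2 the change was -0.39 ± 0.47. For the glycine receptor, Glrb had 5.04 and 7.73 RPKM at P4, 1.67 and 1.46 at P10, and 2.67, 2.62 and 3.51 at P28. All P10 and P28 libraries were below both P4 libraries, and the change to P28 of -0.89 ± 0.37 missed the threshold (limma adjusted p = 0.0762). Glra3 changed by 0.31 ± 0.60, Gabrr3 by 0.36 ± 0.76, Gabrg3 by 0.43 ± 0.67, Gabra2 by 0.31 ± 0.34 and Gabrb2 by -0.33 ± 0.79. Among promoters that missed the threshold, Gabrr1 passed as higher with library weights and without P10 replicate 2, the Gabbr1 peak at chr17:37049710-37050807 with library weights, and Grm5 with voom. Glrb passed as lower under the 3 scalings, and Gria3 and Gabra5 when scaled to reads in peaks and with quantile normalization. As for Grik2, these scalings are no check on a negative estimate. Over the alternative fits the change ran from -2.36 to 0.19 at Glrb, from -1.99 to 0.54 at Gria3 and from -2.04 to 0.84 at Gabra5.

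Outside promoters, receptor gene peaks passed the test in both directions, in a balance that depended on the settings. From P4 to P28, 33 of 427 such peaks rose and 32 fell. By the same rule 16.6% of all peaks outside promoters were higher and 4.84% lower. With the promoter peak the counts were 34 higher and 32 lower, that is, 51.5% of calls were higher, against 81.8% of the calls over all peaks. With libraries scaled to reads in peaks the share was 12.3% (15 higher, 107 lower), against 32.3% over all peaks. It was 22.2% (22 and 77) with median centring, against 56.9%, and 19.4% (24 and 100) with quantile normalization, against 48.3%. It was higher on the deposited scaling with peaks under a mean of 1 RPKM left out, at 86.5% (32 and 5, against 96.7%), and with a pseudocount of 0.1, at 74.3% (26 and 9, against 90.0%). Leaving out a library also moved the total of 66: to 21 without P4 replicate 1, 24 without P4 replicate 2, 34 without P28 replicate 2 and 32 without P28 replicate 3, and to 108 and 110 without P10 replicates 1 and 2. Over all peaks the share called, 23.1% as deposited, was 7.18%, 7.66%, 10.6%, 10.5%, 38.95% and 39.2% in these fits, in the same order. Within batch 1, that is, without P28 replicate 1, the total was 45 (28 higher, 17 lower), with 13.7% of all peaks called.

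The rises and the falls differed in the reads behind them. A peak entered the merged set by being called at any 1 age in these same libraries. A peak called at P4 alone was thus chosen where P4 was high, and a peak called at P28 alone where P28 was high. The direction of a change can follow in part from that choice, and how far it does was not tested. The same holds for promoter peaks and for P10. The 33 rises had a median of 154 reads over the P28 libraries and 2 over the P4 libraries, and 13 had no read at P4. For the 32 falls the medians were 4 reads at P4 and 2 at P28, summed over libraries, and 26 of them (81.3%) were at the floor at P4 as well. All peaks outside promoters had a like pattern, with medians of 3 reads at P4 and 221.5 at P28 for rises and of 4 and 2 for falls, 78.9% of which were at the floor at P4. Mean levels of the falls at P4 ran from 1.01 to 5.79 RPKM, and those of the rises at P28 from 1.23 to 55.8. Libraries did not overlap at any of these peaks. Over all 427, every P28 library was above P4 at 124 peaks and below it at 136, against 46.3% and 23.2% of all peaks outside promoters.

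**Figure D3:**
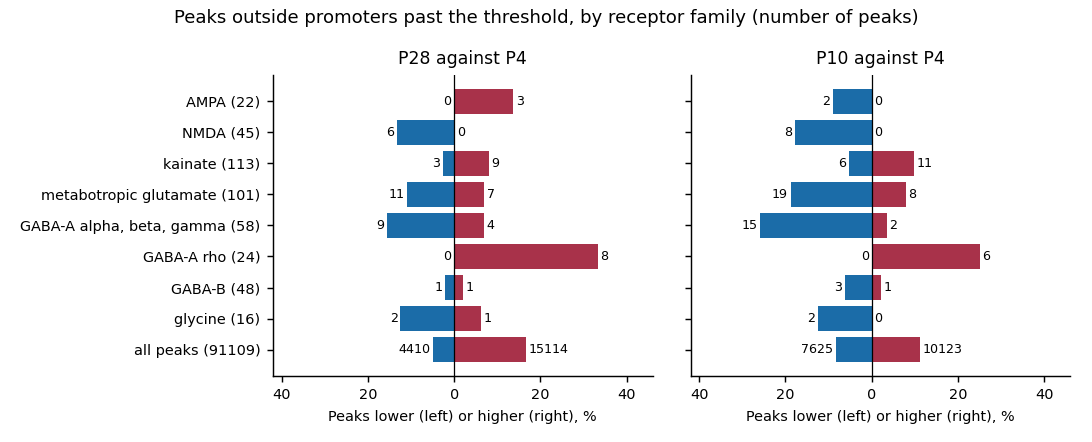
Share of peaks outside promoters that were higher (right, red) or lower (left, blue) at P28 (left panel) or P10 (right panel) than at P4, by receptor family, with counts at the bar ends and the number of peaks tested in brackets. GABA-A rho genes had 8 higher and 0 lower of 24 at P28, and NMDA genes 0 higher and 6 lower of 45.

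The counts by family stand against 16.6% higher and 4.84% lower over all peaks outside promoters. The 24 peaks of the 3 rho genes had 8 rises and 0 falls, and the 22 of AMPA genes had 3 rises, all in Gria2, and 0 falls. Kainate genes had 9 rises and 3 falls among 113 peaks, metabotropic genes 7 and 11 among 101, GABA-A alpha, beta and gamma genes 4 and 9 among 58, GABA-B 1 and 1 among 48, and glycine receptor genes 1 and 2 among 16. NMDA genes had 0 rises and 6 falls among 45. The median change was 1.06 for rho peaks and stayed positive under the 3 scalings (0.04, 0.54 and 0.52), but not for each rho gene. For Gabrr1 the medians under the scalings were 0.91, 1.45 and 1.49, and for Gabrr2 -0.06, 0.59 and 0.17. For Gabrr3 they were all negative, at -0.63, -0.03 and -0.13. For NMDA peaks the median change was -0.52, on which the scalings, which lower the median of all peaks, are no check. The AMPA median of 0.25 turned negative under all 3 (-0.61, -0.27 and -0.33).

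Calls were spread over genes: 16 genes had a rise, 19 a fall, 6 both and 13 neither. Of all 19849 genes with a peak outside promoters, 5736 had a rise there and 3179 a fall, but these genes shared 91109 such peaks and the 38 receptor genes 427, so the counts of genes cannot be compared. The 5 genes with the most peaks, Grik3 (62), Gabbr2 (49), Grm7 (36), Grik4 (34) and Grm4 (24), held 44.4% of all receptor gene peaks. Grm4, which spans 99 kb, and Grm7, which spans 922 kb, gave opposite medians. All 24 Grm4 peaks had a positive change as deposited, with a median of 0.92 and 2 rises, but 11 were positive when scaled to reads in peaks (median -0.19), 21 with median centring and 17 with quantile normalization. The 35 Grm7 peaks outside the promoter had a median of -0.92, 0 rises and 4 falls. The 5 Grik5 peaks outside promoters had a median of 2.43 with 4 rises, and the median stayed positive (1.81, 1.91 and 1.75). Grm4 had no promoter peak.

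The highest receptor gene peak of the data was in Grm4, which encodes a presynaptic receptor. It lay in intron 9 of 10 (chr17:27432161-27434150, gene ENSMUSG00000063239), 87.3 kb from the assigned start. Its level was 4.79 and 9.90 RPKM at P4, 44.5 and 61.4 at P10, and 50.0, 54.1 and 63.4 at P28. P10 and P28 overlapped and both stood far above P4. The mean at P28 was 7.60 times that at P4, with a change of 2.83 ± 0.31 (limma adjusted p = 0.000234). The change to P10 was 2.74 ± 0.34 (adjusted p = 0.000819).

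The next highest was in Grik3, a kainate subunit of low glutamate affinity, at a peak over exon 9 of 16 (chr4:125657937-125659710). It had 5.12 and 5.05 RPKM at P4, 41.7 and 51.1 at P10, and 27.1, 31.2 and 38.2 at P28. Each P10 library was above each P28 library. The change was 2.43 ± 0.25 to P28 (limma adjusted p = 0.000194) and 2.96 ± 0.28 to P10 (adjusted p = 0.000399). This peak stayed past the threshold for P28 in all 16 alternative fits, with changes from 0.86 to 2.95. The central 300 bases of these 2 peaks are shown because they carry the highest levels outside promoters, chr17:27433005-27433304 for Grm4 and chr4:125658673-125658972 for Grik3, both on the plus strand of GRCm38. Neither motif was found in them, so they hold no capitals, and they have 2 and 3 CG dinucleotides.
Grm4: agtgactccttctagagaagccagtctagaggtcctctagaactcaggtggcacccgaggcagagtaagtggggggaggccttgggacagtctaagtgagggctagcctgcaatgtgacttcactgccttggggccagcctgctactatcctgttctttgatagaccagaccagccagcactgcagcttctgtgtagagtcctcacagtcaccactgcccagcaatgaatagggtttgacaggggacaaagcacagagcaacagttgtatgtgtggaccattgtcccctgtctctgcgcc
Grik3: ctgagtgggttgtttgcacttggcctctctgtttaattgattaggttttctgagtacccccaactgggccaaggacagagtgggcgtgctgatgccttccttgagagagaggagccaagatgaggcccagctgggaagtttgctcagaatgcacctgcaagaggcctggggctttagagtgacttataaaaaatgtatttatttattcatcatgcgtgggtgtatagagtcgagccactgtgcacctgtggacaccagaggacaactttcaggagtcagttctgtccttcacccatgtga

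Grik5 had the largest rise. At its 3′ UTR (chr7:25009708-25010647) the level was 0 and 2.54 RPKM at P4, 9.60 and 15.1 at P10, and 14.2, 15.5 and 16.2 at P28. The lowest P28 library stood well above both P4 libraries, which had 4 reads between them. The change was 3.11 ± 0.48 (limma adjusted p = 0.00102), and it missed the threshold with a pseudocount of 0.1 (adjusted p = 0.0225), scaled to reads in peaks (0.0209) and after thinning (0.0117). A second site, in intron 12 of 19 (chr7:25026046-25026566), had no read at P4, 3.47 and 3.03 RPKM at P10, and 3.52, 7.43 and 7.96 at P28, at least 2.08-fold above the level of 3 reads per library. Its change was 2.81 ± 0.44 (limma adjusted p = 0.00105). With the promoter, 5 of the 7 Grik5 peaks rose.

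Grm8, another presynaptic receptor gene, rose in intron 2 of 9 (chr6:27809445-27810702) from 4.33 and 2.37 RPKM at P4 to 21.5 and 25.7 at P10 and 17.3, 26.1 and 30.6 at P28 (2.56 ± 0.33, limma adjusted p = 0.000406). Gria2 rose in intron 2 of 15 (chr3:80763969-80764517), with no read at P4, 3.29 and 1.44 RPKM at P10 from 1 read each, and 3.82, 5.04 and 5.35 at P28 (2.51 ± 0.44, limma adjusted p = 0.0019). The P28 mean was at least 1.65-fold above the floor. Of the 6 largest rises, 1 was intergenic, 6.50 kb upstream of the assigned Gabrr1 start (chr4:33125276-33126023): no read at P4, 7.24 and 3.16 RPKM at P10 and 2.81, 4.52 and 7.39 at P28 (2.49 ± 0.48, limma adjusted p = 0.00319).

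**Figure D4:**
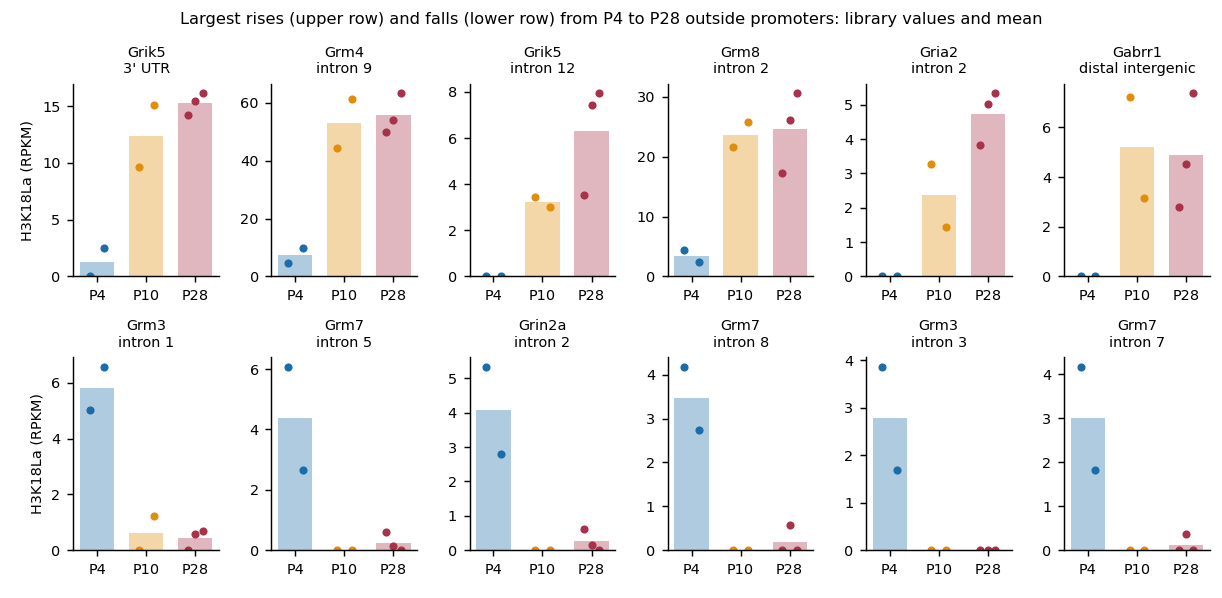
H3K18La level (RPKM) at the 6 largest rises and the 6 largest falls from P4 to P28 outside promoters; points are libraries, bars the mean of an age, and each panel has its own axis from 0. Rises reach between 4.74 and 55.8 RPKM at P28, while the falls start between 2.78 and 5.79 RPKM at P4.

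The largest falls were in long introns of glutamate receptor genes. In intron 1 of Grm3 (chr5:9622415-9623684), a receptor known from glia as well as neurons, the level was 5.01 and 6.58 RPKM at P4 (28 reads), 0 and 1.24 at P10, and 0, 0.581 and 0.680 at P28 (17 reads). The change was -2.28 ± 0.49 (limma adjusted p = 0.00516). This fall had the most reads of the 6, and its P4 mean was 13.8 times that of P28. The other 5 rested on 3 to 8 reads at P4 and 0 to 4 at P28, with no read at P10. Grm7 had 3 of them, in introns 5, 7 and 8 of 10, 580, 657 and 849 kb from the start, with changes of -2.07 ± 0.37, -1.78 ± 0.31 and -1.93 ± 0.31. Grin2a, a regulatory NMDA subunit, fell in intron 2 of 11 from 5.35 and 2.81 RPKM to 0.617, 0.145 and 0 (-2.00 ± 0.35, limma adjusted p = 0.00193). Grm3 fell again in intron 3, from 3.86 and 1.69 RPKM to 0 in all P28 libraries (-1.85 ± 0.27, limma adjusted p = 0.000723).

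Without any 1 library, the Grm4, Grik5 3′ UTR and Grm3 intron 3 changes stayed past the threshold. Grm8 lost it without P4 replicate 2. The Grik5 intron 12, Gria2 and Gabrr1 rises each lost it without either P4 library, without P28 replicate 2 and without P28 replicate 3. The Grm3 intron 1 fall lost it without either P4 library and without each P28 library. The Grm7 intron 5 and Grin2a falls lost it without P4 replicate 1, P28 replicate 2 or P28 replicate 3, and the Grm7 intron 7 and 8 falls without P4 replicate 1, P28 replicate 1 or P28 replicate 3.

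Other settings also ended calls among these peaks. After thinning, the 6 largest rises missed the threshold, as did the falls other than Grm7 introns 5 and 8. With a pseudocount of 0.1, all the named falls but Grm3 intron 3 missed it. With the replicate number as a block, the Gria2, Gabrr1 and Grm3 intron 1 changes missed it, with quantile normalization Grm8, and scaled to reads in peaks the Gabrr1 rise.

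At P10, as at P28, peaks passed the test in both directions. From P4 to P10, 29 receptor gene peaks rose, 1 of them a promoter (Grik5), and 56 fell, 1 of them a promoter (Gabra5). Over all promoter peaks 12.8% were higher and 1.86% lower at P10, and over peaks outside promoters 11.1% and 8.37%. Both comparisons share the P4 libraries, and 19 of the 29 rises were also past the threshold at P28. All 56 falls had no read in either P10 library, on 2 to 14 reads at P4 with a median of 4. At all 56 the P4 mean was below the level that 3 reads give in P10 replicate 1, and at 54 below that level in both P10 libraries. The balance of rises and falls turned without P10 replicate 1, to 43 higher and 19 lower (16.2% and 3.20% of all peaks). It was 12 and 0 with library weights (4.94% and 0.0841%), and 15 and 106 with libraries scaled to reads in peaks (4.35% and 15.8%). The total of 85 was 36 when peaks under a mean of 1 RPKM were left out (26 higher, 10 lower, against 11.4% and 1.47% of all peaks), and 43 (41 higher, 2 lower, against 14.5% and 0.0924%) with voom on recovered reads. The total was 24 and 26 without P4 replicates 1 and 2, and 53, 40 and 44 without P28 replicates 1, 2 and 3. Over all peaks the share called was 5.06%, 5.05%, 12%, 8.03% and 10.3% in these fits, against 18.7%.

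Apart from Grik3 exon 9, the largest P10 rises included peaks with lower values at P28, and no difference between P10 and P28 passed the test at any of them. At Gabrr2, exon 2 of 9 (chr4:33070961-33071884) had 1.48 and 0.646 RPKM at P4, 11.7 and 16.2 at P10, and 2.84, 4.46 and 3.74 at P28. The P10 change was 2.87 ± 0.40 (limma adjusted p = 0.00124) and the P28 change of 1.20 ± 0.37 missed the threshold (adjusted p = 0.0257). The largest P10 rise, at an intergenic peak 92.3 kb from the Grm7 start (chr6:110552858-110553267), rested on 2 and 3 reads, 8.81 and 5.77 RPKM, with no read at P4 and 1 read at P28. The Grik5 3′ UTR was the remaining peak of the 4. The 4 largest P10 falls, in Gabra2, Gabbr2, Grm7 and Grik4, had between 6 and 14 reads at P4 and 0 at P10. At P28 the Gabbr2 peak stood at 5.30 ± 1.83 RPKM (SD, n = 3), against 4.53 ± 0.05 (SD, n = 2) at P4.

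In the direct comparison of P28 with P10, 0 receptor gene peaks passed with limma, and over all peaks 0.00185% did. At an unadjusted p under 0.05, 126 of the 462 (27.3%) passed, against 32.5% of all peaks. Voom on the recovered reads called 38 (4 higher, 34 lower), against 2.17% of all peaks higher and 6.09% lower. Without P10 replicate 2, 40 passed with limma (33 higher, 7 lower), against 12.98% and 2.27% of all peaks.

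Distances from the gene start are given as a description. For peaks within the receptor genes and outside promoters, the median distance to the assigned start was 59.0 kb for 28 rises, 268 kb for 25 falls and 147 kb for 312 others. In all intron peaks of the data the medians were 42.6, 103 and 68.5 kb in the same order. Within the receptor genes, no fall lay nearer than 43.3 kb, and rises ran from 3.06 to 372 kb. The first intron held 5 of the 28 rises, 5 of the 25 falls and 90 of the 312 others. Distal peaks carry the gene with the nearest start, which was the only assignment used.

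**Figure D5:**
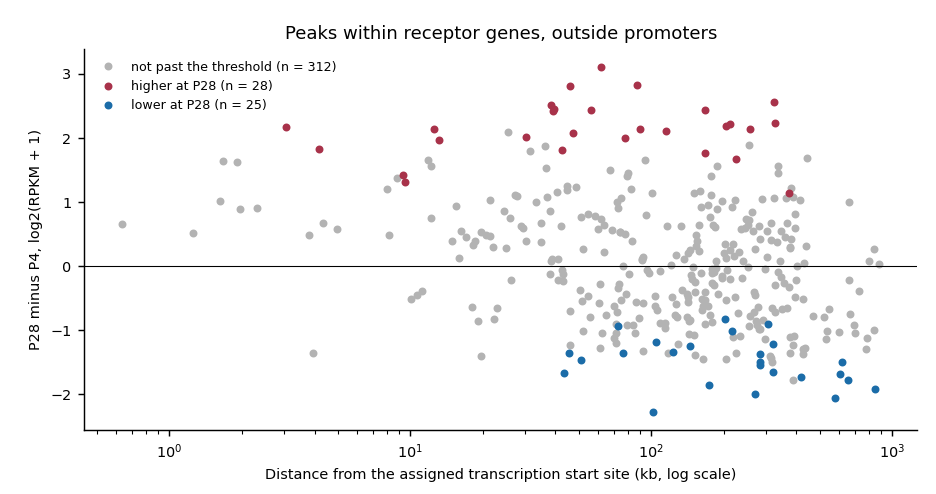
Change from P4 to P28 on the log2(RPKM + 1) scale against distance from the assigned start site (kb, log axis) for 365 peaks within receptor genes. Falls past the threshold (blue) start at 43.3 kb, and rises (red) begin at 3.06 kb.

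In the central 300 bases of the peaks, TAATCC was present at 8 of 33 rises outside promoters (24.2%), 3 of 32 falls (9.38%) and 35 of 362 others (9.67%). Over all peaks outside promoters the shares were 18.7%, 9.25% and 11.2%. GGGCGG was present at 12 of 35 receptor promoter peaks (34.3%), against 44.8% of all promoter peaks. These are matches of letters on either strand, given as a description.

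Genes that work beside the receptors were described from a list of transporters, scaffolds and enzymes. Of 33 glutamatergic partner genes, 26 had a promoter peak, of which 9 (34.6%) were higher and 0 lower at P28, with a median change of 1.30. Of 20 GABA and glycine partner genes, 17 had one, of which 6 (35.3%) were higher and 0 lower, with a median of 1.05. By the same rule of 1 peak per gene, the 30 receptor genes had 1 higher and 0 lower and a median of 0.25, and all 14562 genes with a promoter peak had 31.0% higher, near the share of both partner lists, and a median of 1.26. Slc1a7, a glutamate transporter of photoreceptor and bipolar terminals, rose from 4.0 ± 1.67 RPKM (SD, n = 2) to 34.8 ± 5.67 (SD, n = 3). Slc12a5, the chloride exporter KCC2 of mature neurons, rose from 0.860 ± 0.165 to 18.1 ± 2.57 RPKM. Slc17a7, the vesicular glutamate transporter, rose from 1.01 ± 0.19 to 13 ± 2.52, and Gphn, encoding the gephyrin scaffold of inhibitory synapses, from 3.53 ± 0.90 to 10.5 ± 0.92. Gad1 and Gad2, which make GABA, were at 2.45 ± 0.47 and 3.94 ± 1.46 RPKM at P4 and 1.36 ± 0.20 and 1.45 ± 0.58 at P28, and neither passed.

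Rod marker promoters rose with age as well, and the part of cell type markers in the receptor results was not tested. All 5 rod marker promoters rose, with a summed level of 18.3 and 21.8 RPKM at P4, 169 and 163 at P10, and 106 to 147 at P28. Summed promoter levels of ganglion cell markers (2 of 4 with a promoter peak) were 5.88 to 7.82 RPKM at P4 and 1.47 to 4.10 at P28, and those of amacrine markers (2 of 4) 3.98 to 4.86 and 2.88 to 3.84, with no marker called in either list. For bipolar markers (2 of 3) the sums were 1.74 and 2.28 at P4 and 2.49 to 4.94 at P28. Onecut1, of horizontal cells, went from 4.39 and 5.12 RPKM to between 1.30 and 2.18 and was not called. Mueller glia markers (2 of 3) went from 4.12 and 4.40 to between 13.1 and 17.4, with 1 called higher. Cone markers (2 of 3) had 1 called higher, with sums of 0.683 and 3.17 at P4 and 9.34 to 12.2 at P28, and cycling cell markers (2 of 4) 1, with 1.21 and 2.43 and 13.8 to 17.3. Markers of cells outside the neural retina, Best1 (pigment epithelium), C1qa (microglia) and Cldn5 and Kdr (endothelium), had promoter means of 1.28 to 2.26 RPKM at P4 and 1.43 to 3.31 at P28, and none was called. Every one of the listed markers with a promoter peak had at least 1 read at P4.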

How the data were processed

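The authors mapped CUT&Tag reads to GRCm38 with nf-core/cutandrun, called peaks with MACS per library, kept those present in 2 or more replicates per age, merged them over ages and annotated them with ChIPseeker 1.34.1, per the labels and the study's methods. They deposited RPKM values per merged peak, scaled by their effective library sizes. From these, reads per peak were recovered as whole numbers (100% of values within 0.01 of a whole read), and 3 reads were taken as the floor. log2(RPKM + 1) of all 108253 peaks and 7 libraries was fitted with limma 3.58.1 in R 4.3.3 (trended variance, age as the factor, no covariate), with Benjamini-Hochberg adjustment and a threshold of 0.01. The script was tested on simulated data, where it called few of the introduced changes at this threshold, so its power is low.

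Receptor genes, gene lists and named peaks were chosen with earlier results of these data known. Named peaks were the promoter peak nearest the start of each gene (the wider where 2 tied), the largest promoter change of each family and the 2 smallest, and, outside promoters, the 6 largest rises and falls to P28 and 4 to P10 among peaks past the threshold with no overlap of libraries. Examples among partner genes and genes with contrasting peaks were chosen after their values were seen. Alternatives covered the pseudocount (0.1), a filter, scaling, voom, library weights, thinning, the threshold (0.05), the replicate number and each library left out (for named peaks outside promoters and for single genes these were added after seeing the data). A deposited table of the authors' own differential binding results (fold changes and p-values) and a separate deposited list of the peak intervals were not used, and coordinates and widths came from the RPKM table. Depth per library is given as the range of reads in peaks. Values of some receptor genes are not reported here, although counts and medians include them. RNA levels were not analysed here.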

Additional observations from a re-analysis of the deposited data

How the results depend on the processing

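From P4 to P28 the main total was 66 (34 higher, 32 lower). It was 35 with a pseudocount of 0.1 (26 and 9). With peaks under a mean of 1 RPKM left out (the filter) it was 37 (32 and 5). Scaled to reads in peaks it was 122 (15 and 107), and with quantile normalization 124 (24 and 100). Of all peaks tested, 14.2% were called with the pseudocount, 21.4% with the filter, 22.2% scaled to reads in peaks and 26.2% with quantile normalization. The share was 23.1% in the main fit. Voom gave 132 (56 and 76, against 30.2% and 11.3% of all peaks), and library weights 125 (72 and 53, against 34.8% and 7.84%). Thinning to the smallest library gave 18 (3 and 15, against 3.23% and 2.06%). The total was 138 at a threshold of 0.05 (64 and 74), and 21 to 110 without 1 library. The promoter count of 1 became 0 with a pseudocount of 0.1 (21.6% of all promoter peaks higher, 0.233% lower) and after thinning (5.21% and 0.507%). It was 3 with voom, all higher (48.9% and 3.11%), and 5 with library weights, all higher (52.5% and 1.94%). With median centring it was 3 (1 higher, 2 lower, against 21.3% and 2.71%). Quantile normalization gave 4, all lower (17.1% and 5.21%), and scaling to reads in peaks 5, all lower (8.27% and 5.41%). The promoter count was 4 at a threshold of 0.05 (3 higher, 1 lower), and 0 to 4 without 1 library. From P4 to P10 the total of 85 was 36 with the filter (26 higher, 10 lower, against 11.4% and 1.47% of all peaks). It was 28 with quantile normalization (10 and 18, against 4.08% and 2.64%) and 43 with voom (41 and 2, against 14.5% and 0.0924%). Library weights gave 12 (12 and 0, against 4.94% and 0.0841%), and thinning 21 (9 and 12, against 1.74% and 1.40%). This total was 160 at 0.05 (65 and 95), and 24 to 67 without 1 library. Between P10 and P28 the total of 0 became 5 with a pseudocount of 0.1, where 1.23% of all peaks were called. It was 10 with median centring (2.17% of all peaks called), 38 with voom (8.26%) and 6 after thinning (0.723%). At 0.05 it was 50, and without 1 library 0 to 40. Of the 34 rises to P28, of which the filter tested 32, the sign turned at 1 when scaled to reads in peaks and at 0 in each other setting. Of the 32 falls, of which the filter tested 6, the Grin2a peak had a change of 0 after thinning. The other falls kept their sign wherever they were tested outside the 3 scalings, which lower the median of all peaks and so are no check on a fall. No share of all peaks stands beside the counts at a threshold of 0.05 or the count of 67 from P4 to P10. Those counts therefore describe the receptor gene peaks only and cannot be set against all peaks. The causes of the differences between settings were not tested.

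With the replicate number as a block, 40 peaks passed from P4 to P28 (17 higher, 23 lower, against 11.4% and 2.70% of all peaks). Of the promoter peaks 0 passed, against 18.2% of all promoter peaks higher and 0.455% lower. From P4 to P10, 76 passed (25 higher, 51 lower, against 9.56% and 5.91% of all peaks). Between P10 and P28 0 passed, as over all peaks. Libraries of the same number did not deviate together (correlations across peaks from -0.001 to 0.047), and P28 replicate 3 has no partner. With 2 libraries at P4 and at P10 and few reads per peak, these correlations cannot show whether libraries of a number share an origin. Low depth at P4 and P10 limits every level near 3 reads there.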
